A study of Mus musculus with 6 samples.

Results

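The EphB receptors are the 5 mouse genes Ephb1, Ephb2, Ephb3, Ephb4 and Ephb6, taken by name from the 41053 gene rows of each library, and all 5 were found. They were read in polyadenylated RNA from 6 lines of cultured spermatogonial stem cells of adult mice, the germline stem cells of the testis, grown in StemPro-34 medium with added supplements and growth factors. All 6 lines went through electroporation with a plasmid that encodes a green fluorescent protein reporter, sorting of the fluorescent cells and subcloning. The 3 wild-type (WT) lines received no guide RNA, and the 3 lines labelled Ephb2-KO received one against Ephb2. In both groups lines 1 and 2 were at passage 20 and line 3 was at passage 18. Each line is a subclone with 1 library. Nothing in the labels says whether lines of the same number share a parent culture. P-values of the fit by group alone measure the spread between these subclones. Fits that include the line number gave the contrasts of passage and of lines 2 against lines 1. Their p-values measure only the spread left within lines of the same number. The labels give neither the strain nor whether feeder cells were used.

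EphB receptors are transmembrane tyrosine kinases that bind ephrin-B ligands on the surface of a neighbouring cell. Since ephrin-B proteins also cross the membrane, contact signals in both directions, forward into the cell with the receptor and reverse into the cell with the ligand. Forward signals act through adaptors, exchange factors and small GTPases on the cytoskeleton and adhesion, and Ephb6 differs from its relatives in lacking kinase activity. In the intestine, Ephb2 and Ephb3 are known for placing stem and progenitor cells within the crypt. The comparison between groups asks how lines that received a guide against 1 member of the family express that gene and its relatives.

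Library totals ran from 21772404 to 34047758 counts. Levels below are CPM, counts scaled to library size with TMM factors, or RPKM, the same value per kilobase of exon for comparing genes. A count of 3 in 1 library equals 0.0803 to 0.147 CPM, and the member counts of 174 to 2993 per library carried 95% Poisson half-widths of 3.60% to 15.2%, which cover counting error only. All 12 spermatogonial markers were detected in all libraries, with summed levels of 1726 to 3473 CPM. The 12 fibroblast or stroma markers summed to 3083 to 5398 CPM in the 4 passage 20 libraries. Their sum was 16907 and 19932 CPM in WT 3 and Ephb2-KO 3. It was unevenly made up, with means of 2.44 CPM for Thy1 and 2.65 CPM for Fap. Col3a1 and Col1a2, fibrillar collagen genes, led that list with means over the 6 libraries of 2830 and 2541 CPM. Levels in a bulk sample combine the number of cells of a type with the RNA in each cell, and these cannot be told apart. Summed levels of the other lists were 43.4 to 123 CPM for endothelium, 47.2 to 83.3 for Sertoli cells, 26.0 to 68.6 for peritubular myoid cells, 7.75 to 21.1 for macrophages and 1.11 to 2.12 for Leydig cells. The Sertoli gene Fshr and the Leydig genes Hsd3b1 and Lhcgr had 0 counts in all 6 libraries, which allows up to 0.147 CPM in the shallowest library. Of the 8 listed Sertoli markers, 5 stayed under 1 CPM in all libraries, Fshr among them. Wt1 and Sox9 led that list with means of 29.2 and 28.2 CPM. Among the endothelial markers, means ran from 0.0331 CPM for Tie1 and 0.156 for Cdh5 to 9.32 for Vwf and 51.3 for Erg.

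In the GRCm38 build, Ephb2 spans chromosome 4 from 136647539 to 136835988 on the minus strand, with 16 exon blocks of 12608 bases in all. Ephb1 covers bases 101922128 to 102354693 of chromosome 9, also on the minus strand, in 16 exon blocks of 6487 bases. Ephb3 covers bases 21204755 to 21223305 of chromosome 16, on the plus strand, in 15 exon blocks of 6289 bases. Ephb4 spans chromosome 5 from 137350109 to 137378669 on the plus strand, with 18 exon blocks of 4640 bases. Ephb6 spans chromosome 6 from 41605482 to 41620509 on the plus strand, with 18 exon blocks of 3773 bases. No gene on the same strand shares exon bases with a member. On the opposite strand, Gm26846 shares 152 exon bases with Ephb1 and had 0 counts in every library, and Zan shares 33 bases with Ephb4 and had 12 to 49 counts.

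RefSeq promoter windows in GRCm38.p6, which run from 250 bases before to 50 after the annotated start, were matched for all 5 genes. Among the 5 receptors, Ephb1 with Ephb2 and Ephb3 with Ephb4 differed least in how their levels varied across the libraries, as given below. For these pairs the 250 bases before the start are printed. They run 5' to 3' on the gene's strand, in lower case, with each GC box (the letters GGGCGG or their reverse complement) in capitals. The windows are chr9:102354694-102354943 and chr4:136836013-136836262, both minus strand, and chr16:21204545-21204794 and chr5:137349859-137350108, both plus strand.
Ephb1: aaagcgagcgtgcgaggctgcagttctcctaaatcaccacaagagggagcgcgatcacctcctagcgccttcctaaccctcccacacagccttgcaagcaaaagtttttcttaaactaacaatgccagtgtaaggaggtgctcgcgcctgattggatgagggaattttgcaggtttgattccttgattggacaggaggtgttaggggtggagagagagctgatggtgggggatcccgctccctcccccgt
Ephb2: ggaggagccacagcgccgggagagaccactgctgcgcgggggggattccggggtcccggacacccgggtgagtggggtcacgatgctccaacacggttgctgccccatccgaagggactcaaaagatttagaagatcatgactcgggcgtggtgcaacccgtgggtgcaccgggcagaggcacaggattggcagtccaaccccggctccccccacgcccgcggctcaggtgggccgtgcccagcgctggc
Ephb3: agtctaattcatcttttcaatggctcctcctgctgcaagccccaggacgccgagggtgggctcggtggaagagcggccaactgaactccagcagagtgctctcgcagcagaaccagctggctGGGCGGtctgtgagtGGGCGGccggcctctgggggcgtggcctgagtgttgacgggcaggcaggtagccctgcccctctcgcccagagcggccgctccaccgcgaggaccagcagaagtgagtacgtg
Ephb4: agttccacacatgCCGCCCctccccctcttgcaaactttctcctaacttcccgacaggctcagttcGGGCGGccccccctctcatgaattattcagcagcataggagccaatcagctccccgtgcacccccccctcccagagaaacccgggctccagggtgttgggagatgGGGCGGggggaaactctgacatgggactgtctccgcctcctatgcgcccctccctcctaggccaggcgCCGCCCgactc

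The GC box matched at 2 places in the Ephb3 window and 4 in the Ephb4 window, and at 0 in those of Ephb1 and Ephb2. Ephb6, not printed, had 5 matches. Of 32851 RefSeq windows of 300 bases, 35.7% hold at least 1 such match. An ETS-type motif, CCGGAA, occurred 1 time each in the windows of Ephb2 and Ephb6 and in 14.9% of all windows. The CCAAT box occurred 2 times in Ephb1 and 1 time each in Ephb2 and Ephb4, and in 37.4% of all windows. The TATA box, TATAAA, was in no member's window and in 13.6% of all windows. Likewise absent were the TCF/LEF motif CTTTGAT, which 3.73% of all windows hold, and the E-box CACGTG, which 7.15% hold. Both strands were searched, the GC boxes printed above do not overlap each other, and matches are letters rather than sites shown to be bound. GC content of the 300 bases was 55.7%, 68.7%, 66.7%, 64.7% and 76.3% for Ephb1, Ephb2, Ephb3, Ephb4 and Ephb6, against a median of 52.7% over all windows.

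Per length of transcript, Ephb4 and Ephb6 were the main EphB transcripts of these cultures. Their mean levels over the 6 libraries were 12.1 and 11.3 RPKM, higher than 65.2% and 63.6% of tested genes. Ephb3, Ephb1 and Ephb2 had mean levels of 2.56, 2.28 and 1.67 RPKM, higher than 32.8%, 31.0% and 26.2% of tested genes. The lowest value of Ephb4 or Ephb6 in any library lay above the highest value of Ephb1, Ephb2 and Ephb3. Within the upper pair the order changed by library, with Ephb4 above Ephb6 in WT 3, Ephb2-KO 1 and Ephb2-KO 3. In the lower trio, Ephb1 was above Ephb2 in 6 of 6 libraries by a ratio of RPKM levels of 1.21 to 2.11, although their ranges over libraries overlapped. Ephb2 was above Ephb3 in 1 of 6 libraries, WT 2, and Ephb1 above Ephb3 in 3 of 6. Ephb2, the targeted receptor, made up 3.13% to 7.87% of the summed EphB RPKM, and Ephb4 with 28.6% to 48.0% and Ephb6 with 28.4% to 49.1% supplied most of it. The summed EphB level was 26.7, 27.3 and 24.6 RPKM in WT 1, 2 and 3 and 39.4, 27.2 and 34.0 RPKM in Ephb2-KO 1, 2 and 3. These lengths are the summed exons of all annotated transcripts, so a gene whose longer forms are unused is placed too low.

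**Figure D1:**
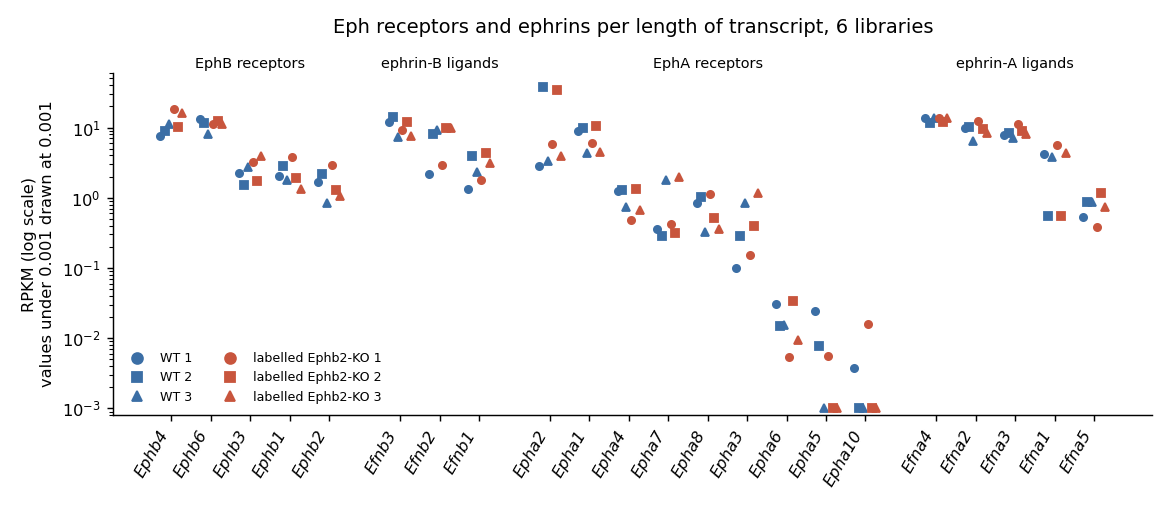
RPKM (log scale) of each Eph receptor and ephrin in the 6 libraries, 1 point a library, in blue for WT and red for labelled Ephb2-KO, with the shape giving the line number and values under 0.001 drawn at 0.001. Ephb4 and Ephb6 lie at 12.1 and 11.3 RPKM on average, above the other EphB receptors in each library, and the lines numbered 2 stand apart for Epha2 and Efna1.

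Ephb2 itself was not lower on average in the lines labelled Ephb2-KO. Its level was 21.3, 27.1 and 10.8 CPM in WT 1, 2 and 3 and 37.1, 16.5 and 13.4 CPM in Ephb2-KO 1, 2 and 3. The highest of all 6 values was in Ephb2-KO 1, the lowest in WT 3, and the groups overlapped. Group means were 19.7 ± 8.27 CPM for WT and 22.3 ± 12.9 CPM for Ephb2-KO (SD, n = 3 each). Between same-numbered lines the log2 difference, Ephb2-KO minus WT, was 0.80, -0.71 and 0.31 for numbers 1, 2 and 3, so that 2 of 3 labelled lines exceeded their WT counterpart. The fitted log2 fold change was 0.18 (SE 0.50, 95% interval -1.0 to 1.36, edgeR quasi-likelihood adjusted p = 1.0). With the line number as a block it was 0.14 (SE 0.27, 95% interval -0.47 to 0.75, edgeR adjusted p = 0.920). In the fit by group alone it was -0.40 without Ephb2-KO 1 and -0.11 without WT 3, so its sign rests on these libraries. Gene counts do not show small insertions or deletions, and the labels do not give the guide's target site, so these levels check neither the label nor the protein.

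**Figure D2:**
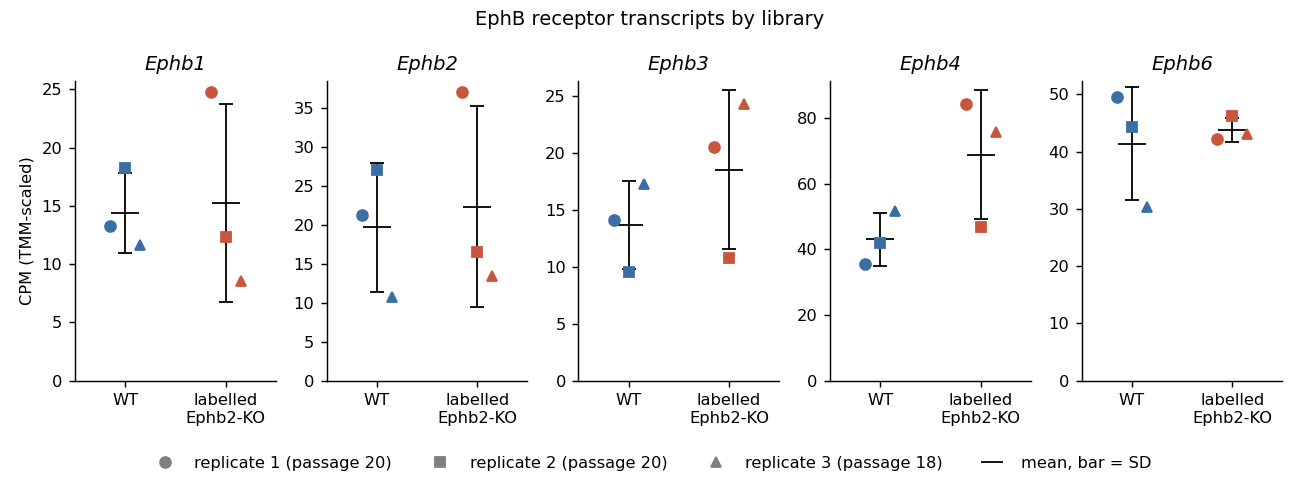
Level in CPM of each EphB receptor in the 3 WT (blue) and 3 labelled Ephb2-KO (red) libraries, with the line number as the shape and the group mean and SD in black. The groups overlap for all 5 receptors, including Ephb4 at 35.4 to 51.7 CPM in WT and 46.7 to 84.4 CPM in Ephb2-KO.

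Ephb4, which is known as the partner of ephrin-B2 in blood vessels, had the largest fitted difference between the groups among the 5. Its level was 35.4, 42.0 and 51.7 CPM in WT 1, 2 and 3 and 84.4, 46.7 and 75.6 CPM in Ephb2-KO 1, 2 and 3. Ephb2-KO 1 and 3 lay above all WT lines, and Ephb2-KO 2 lay below WT 3. The means were 43.0 ± 8.16 and 68.9 ± 19.7 CPM (SD, n = 3 each). Within same-numbered lines the log2 difference was 1.25, 0.15 and 0.55, above 0 in 3 of 3, and largest by far in number 1. The fitted log2 fold change was 0.68 (SE 0.28, 95% interval 0.01 to 1.35, edgeR unadjusted p = 0.0477) and did not pass adjustment over all genes (adjusted p = 1.0). With the line number as a block it was 0.65 (SE 0.19, unadjusted p = 0.00674, adjusted p = 0.741). Leaving out both lines numbered 1 gave 0.35 in the blocked fit, and leaving out both lines numbered 2 gave 0.90.

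Ephb3, a receptor that acts with Ephb2 in several tissues, differed less. Its level was 14.1, 9.56 and 17.3 CPM in WT 1, 2 and 3 and 20.5, 10.8 and 24.3 CPM in Ephb2-KO 1, 2 and 3. Lines numbered 2 were lowest in both groups, and the groups overlapped. The means were 13.6 ± 3.88 and 18.5 ± 6.98 CPM (SD, n = 3 each). The within-number differences were 0.54, 0.17 and 0.49 on the log2 scale, again above 0 in 3 of 3, with a counting interval for number 2 that holds 0. The fitted log2 fold change was 0.44 (SE 0.40, 95% interval -0.50 to 1.38, edgeR adjusted p = 1.0), and 0.41 with the block (SE 0.17, unadjusted p = 0.0354, adjusted p = 0.741).

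Ephb1 resembled Ephb2 across the libraries except within number 3. Its level was 13.3, 18.3 and 11.7 CPM in WT 1, 2 and 3 and 24.8, 12.3 and 8.55 CPM in Ephb2-KO 1, 2 and 3. As for Ephb2, Ephb2-KO 1 was highest and WT 2 second, and the lines numbered 3 held the 2 lowest values. The log2 difference within numbers was 0.90, -0.56 and -0.45, in number 3 opposite in sign to the 0.31 of Ephb2. The fitted log2 fold change was 0.08 (SE 0.45, 95% interval -0.97 to 1.14, edgeR adjusted p = 1.0) and -0.03 with the block. It was -0.46 without Ephb2-KO 1 and -0.04 without WT 3, so no direction can be given.

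Ephb6, the receptor without kinase activity, varied least. Its level was 49.5, 44.3 and 30.4 CPM in WT 1, 2 and 3 and 42.1, 46.2 and 43.0 CPM in Ephb2-KO 1, 2 and 3. The 3 labelled lines lay within the WT range. The highest library exceeded the lowest 1.63-fold, against 2.38-fold for Ephb4, 2.54-fold for Ephb3, 2.90-fold for Ephb1 and 3.44-fold for Ephb2. The within-number log2 differences were -0.23, 0.06 and 0.50. The fitted log2 fold change was 0.08 (SE 0.24, 95% interval -0.49 to 0.65, edgeR adjusted p = 1.0), and -0.10 without WT 3. With the block it was 0.11 (SE 0.15, edgeR adjusted p = 0.888).

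**Figure D3:**
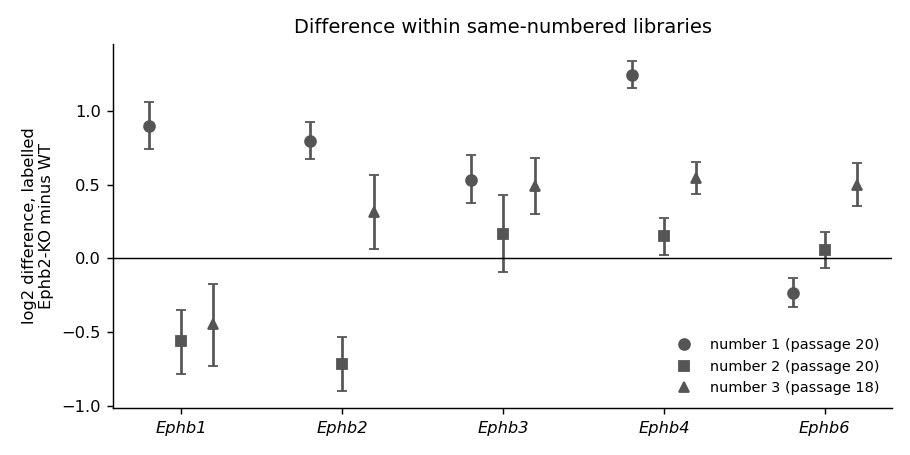
Log2 difference in CPM, labelled Ephb2-KO minus WT, between lines of the same number for each EphB receptor, with bars giving the 95% interval from counting error alone. Ephb3 and Ephb4 are above 0 for all 3 numbers, from 0.15 to 1.25, while Ephb1, Ephb2 and Ephb6 fall on both sides.

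Over the whole transcriptome, 0 of 15263 tested genes (0%) passed an adjusted p of 0.05 in the edgeR comparison of the groups, with 32 at an unadjusted p under 0.05, and DESeq2 called 4. Those 32 are a share far under 0.05, so p-values of the edgeR fit by group alone run high. Its 0 calls therefore do not show that the groups are alike. The blocked edgeR fit called 4 (0.0262%), with 987 at an unadjusted p under 0.05. None of the 5 receptors was among the calls of either edgeR fit. Genes with a fitted value above 0 and an unadjusted p under 0.05 in the blocked fit made up 4.38% of all genes and included Ephb3 and Ephb4. Genes higher in the labelled line for 3 of 3 numbers made up 15.6% of all genes and included the same 2 of 5 receptors. Genes whose CPM ranges did not overlap, with Ephb2-KO higher, made up 0.839% of all genes and included 0 receptors. An exact two-sided permutation test of log2 CPM, with 3 against 3 lines and a smallest possible p of 0.1, gave p = 0.2 for Ephb4, 0.4 for Ephb3 and 0.9 for Ephb1, Ephb2 and Ephb6. Fibroblast or stroma markers also had higher summed CPM in the labelled line of each number, with 3083 in WT and 4851 in Ephb2-KO for number 1, 4315 and 5398 for number 2 and 16907 and 19932 for number 3. The part of these cells in the differences of Ephb3 and Ephb4 was not tested.

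With all 6 libraries, every EphB difference that passed adjustment was between lines of different number, with the same direction in both groups. Lines 3, at passage 18, had less Ephb2 and more Ephb3 than lines 1 and 2 at passage 20. Ephb2 stood at 10.8 and 13.4 CPM in lines 3 and at 16.5 to 37.1 CPM in lines 1 and 2, with no overlap. Its fitted log2 difference, passage 18 minus passage 20, was -1.07 (SE 0.29, edgeR adjusted p = 0.0159), a level 0.477 times that at passage 20. Ephb3 stood at 17.3 and 24.3 CPM in lines 3 and at 9.56 to 20.5 CPM in lines 1 and 2, where only Ephb2-KO 1 reached into the range of lines 3. Its log2 difference was 0.64 (SE 0.17, edgeR adjusted p = 0.0110), a 1.56-fold higher level. Read within each library, where scaling has no part, the ratio of Ephb2 to Ephb3 in RPKM was 0.753, 1.41 and 0.311 in WT 1, 2 and 3 and 0.903, 0.764 and 0.275 in Ephb2-KO 1, 2 and 3. Both lines 3 thus had the lowest ratios, below each of the 4 others.

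These calls have to be read against a wide background, since 23.0% of genes were called lower and 25.0% higher at passage 18. The unadjusted edgeR p for passage was 0.00592 for Ephb2 and 0.00376 for Ephb3. Ephb4 had a similar 0.00674 between the groups in the blocked edgeR fit, where 0.0262% of genes were called. Passage and line number 3 cannot be told apart, because no other line was at passage 18. With passage in place of the line number in the fit, Ephb2 had a log2 difference of -1.08 (adjusted p = 0.0585) and Ephb3 of 0.59 (adjusted p = 0.204), and neither passed. Both calls also needed both lines 3: Ephb2 had -0.93 without WT 3 (adjusted p = 0.166) and -1.20 without Ephb2-KO 3 (adjusted p = 0.0794), and Ephb3 had 0.71 (adjusted p = 0.127) and 0.58 (adjusted p = 0.222). Ephb1 was lower at passage 18 without passing, with a log2 difference of -0.76 (SE 0.30, adjusted p = 0.0669). It passed without WT 1 at -1.08 and without Ephb2-KO 2 at -0.91, and with DESeq2 at -0.75 (adjusted p = 0.0249). Ephb4 had 0.32 (SE 0.20, adjusted p = 0.210), and passed without Ephb2-KO 1 at 0.56 or without WT 2 at 0.53. Ephb6 had -0.32 (SE 0.16, adjusted p = 0.130), and passed without Ephb2-KO 1 at -0.47.

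Cell type markers differed in the same contrast. At passage 18, 12 of 12 spermatogonial markers were called lower, with a median log2 difference of -0.78. Of the 12 fibroblast or stroma markers, 10 were called higher and 1 lower, with a median of 2.31. Dazl, an RNA-binding protein of germ cells, stood at 826 and 696 CPM in WT 3 and Ephb2-KO 3 and between 1111 and 1382 CPM in the other 4 libraries. Uchl1, a ubiquitin hydrolase abundant in spermatogonia, stood at 269 and 272 CPM in lines 3 and between 392 and 479 CPM in the others. Col3a1 stood at 5662 and 6475 CPM in lines 3 and between 975 and 1471 CPM in the others. The difference of Ephb2, at -1.07, was of the direction and size range of the spermatogonial list. That of Ephb3, at 0.64, was of the direction of the fibroblast list but smaller than its median. Neither direction is particular to these lists, since 23.0% of all genes were called lower and 25.0% higher. The part of these cell types in the receptor values was not tested.

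**Figure D4:**
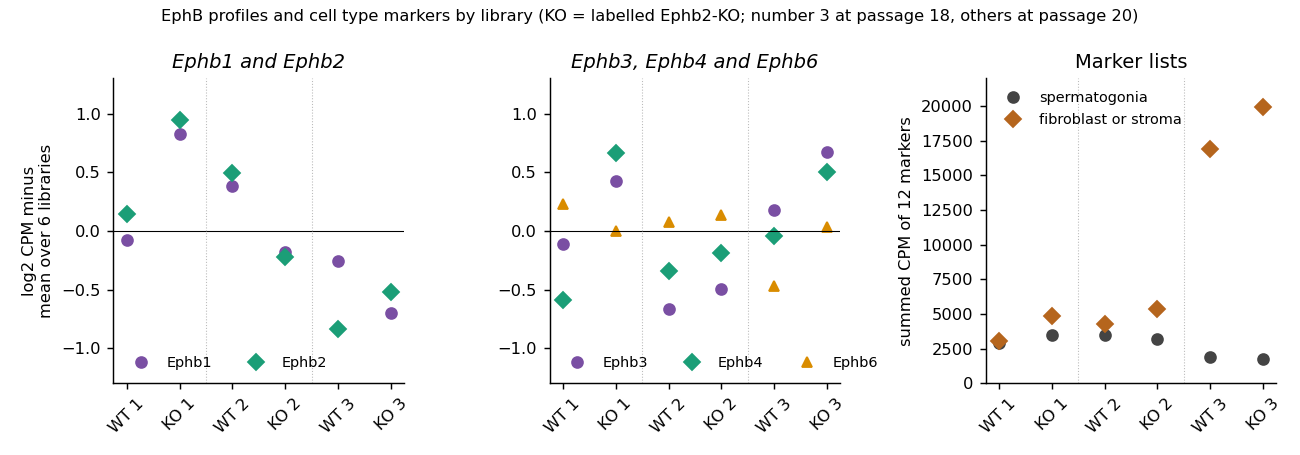
Left and middle, log2 CPM of each EphB receptor minus its own mean over the 6 libraries; right, summed CPM of the 12 spermatogonial and the 12 fibroblast or stroma markers. Ephb1 and Ephb2 rise and fall together except from WT 3 to Ephb2-KO 3, where Ephb1 falls and Ephb2 rises. Both are low in lines 3, where the fibroblast sum reaches 16907 and 19932 CPM.

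Lines 1 and 2, both at passage 20, differed past the threshold in 1 receptor. Ephb3 was lower in lines 2, at 9.56 and 10.8 CPM against 14.1 and 20.5 CPM in lines 1, with a log2 difference of -0.74 (SE 0.21, edgeR adjusted p = 0.0343). Lines 2 thus had the lowest Ephb3 in both groups. Among all genes, 8.35% were called lower in lines 2. The call was lost on leaving out WT 2 (-0.91), WT 3 (-0.74), Ephb2-KO 2 (-0.56) or Ephb2-KO 3 (-0.74), with adjusted p between 0.0564 and 0.220. Ephb1, Ephb2, Ephb4 and Ephb6 had log2 differences of -0.32, -0.38, -0.32 and -0.02, with adjusted p of 0.382 to 0.947. Without WT 1, Ephb1 passed at -0.97, Ephb2 at -0.89 and Ephb4 at -0.74, and without WT 2 Ephb2 passed at -1.05. Without Ephb2-KO 1 these 3 receptors turned to 0.43, 0.13 and 0.15, and without Ephb2-KO 2 to 0.11, 0.23 and 0.067, so their values rest on single libraries. Each of these fits has 1 library for line 1 or for line 2, assumed to vary like the rest.

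Across the 6 libraries, the closest profiles among the receptors were those of Ephb1 with Ephb2 and of Ephb3 with Ephb4. The distance used is the root mean square difference between log2 CPM values, each gene centred on its own mean, and it is a description over 6 libraries that share depth and culture. Ephb1 and Ephb2 were 0.271 apart, and of 11387 genes with a mean of at least 5 CPM, 2.05% lay closer to Ephb1 and 2.27% lay closer to Ephb2. Ephb3 and Ephb4 were 0.306 apart, with 4.14% of genes closer to Ephb3 and 1.62% closer to Ephb4. From WT 1 to WT 2, however, Ephb3 fell and Ephb4 rose. Ephb6 lay at least 0.509 from every other receptor. Ephb2 and Ephb3 were 0.837 apart, and 72.6% of genes lay closer to Ephb2. The genes nearest to Ephb2 were Cntfr, the receptor subunit for ciliary neurotrophic factor, at 0.095, the scaffold gene Shank3 at 0.126 and the homeobox gene En2 at 0.133. Cntfr stood at 27.5, 30.1 and 14.3 CPM in WT 1, 2 and 3 and at 47.0, 22.2 and 16.1 CPM in Ephb2-KO 1, 2 and 3. It was thus, like Ephb2, highest in Ephb2-KO 1 and lowest in WT 3. Nearest to Ephb1 were Gsg2, the germ cell-associated kinase haspin, at 0.105, the kinase gene Mak at 0.114 and Scamp5 at 0.141. Ephb3 had Slc43a3 (0.092), Tceb3 (0.093) and Zfp651 (0.115) nearest, and Ephb4 had Acap3 (0.141), Trim35 (0.147) and Rnpepl1 (0.149). Ephb6 had Spg7 (0.057), Ppp1r37 (0.067) and Hsf1 (0.077), and its small distances go with its small spread.

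All 3 ephrin-B ligands were expressed in the same cultures. Efnb3 and Efnb2 had mean levels of 10.3 and 7.04 RPKM, of the same order as Ephb4 and Ephb6, and Efnb1 of 2.80 RPKM. Efnb2, the preferred ligand of Ephb4, stood at 9.51, 35.3 and 40.0 CPM in WT 1, 2 and 3 and at 12.5, 43.0 and 42.3 CPM in Ephb2-KO 1, 2 and 3. Lines 1 of both groups were low, and the labelled line was the higher one for each number. Efnb1 stood at 4.61, 13.6 and 7.96 CPM in WT 1, 2 and 3 and at 6.20, 14.9 and 10.6 CPM in Ephb2-KO 1, 2 and 3. Lines 2 were its highest in both groups. Efnb3 stood at 37.8, 44.4 and 23.1 CPM in WT 1, 2 and 3 and at 29.0, 38.1 and 24.0 CPM in Ephb2-KO 1, 2 and 3, lowest in lines 3. None of the 3 passed in either edgeR comparison of the groups, with blocked log2 fold changes of 0.32 for Efnb1, 0.25 for Efnb2 and -0.19 for Efnb3 and adjusted p of 0.748 to 0.785. Between line numbers, Efnb2 was higher at passage 18 (log2 difference 1.0, adjusted p = 0.000204) and in lines 2 over lines 1 (1.84), and Efnb1 was higher in lines 2 over lines 1 (1.42). Efnb3 was lower at passage 18 (-0.65, adjusted p = 0.0051). Efnb2 and Ephb4 were both higher in the labelled line for each number, but their patterns across the libraries differed. Ephb4 was lowest in WT 1 and highest in Ephb2-KO 1, the libraries with the lowest Efnb2. Efnb3, like Ephb1 and Ephb2, was lowest in lines 3.

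In the EphA receptors, 6 of 9 passed the filter on low counts, and Epha5, Epha6 and Epha10 stayed under 1 CPM in all libraries. Epha2 had the highest mean per length of all Eph receptors, 14.5 RPKM, carried by lines 2. Its level was 175 CPM in WT 2 and 159 CPM in Ephb2-KO 2, and 13.4 to 27.3 CPM in the other 4 libraries. Epha1 stood at 28.9, 32.7 and 14.3 CPM in WT 1, 2 and 3 and at 19.8, 34.4 and 14.5 CPM in Ephb2-KO 1, 2 and 3. Epha7 stood at 17.7 and 19.7 CPM in lines 3 and at 2.86 to 4.14 CPM in the others. The ephrin-A ligands Efna4, Efna2 and Efna3 had mean levels of 13.0, 9.48 and 8.57 RPKM. None of the 6 EphA receptors and 5 ephrin-A ligands passed between the groups, with median log2 fold changes of -0.06 and 0.19 beside 0.01 over all tested genes. The median over the 5 EphB receptors was 0.18, and over the 3 ephrin-B ligands 0.20.

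Genes of the signalling steps next to the receptors did not pass between the groups either. Of 36 listed forward partners, the adaptors, exchange factors, kinases and GTPases through which EphB receptors act, 34 were tested, 22 with a fitted value above 0 and 12 below, at a median of 0.05. In the labelled line, 7 of the forward partners were higher and 3 lower for all 3 numbers, beside 15.6% and 12.3% of all genes. Cdc42 and Rhoa, the GTPases that organise actin, were the most abundant, with group means of 534 ± 117 and 527 ± 59.3 CPM for Cdc42 and 453 ± 79.3 and 456 ± 63.0 CPM for Rhoa in WT and Ephb2-KO (SD, n = 3). Abl2, a kinase that remodels actin, had means of 337 ± 197 and 316 ± 122 CPM. Of 12 reverse partners, which carry signals from ephrin-B, 7 were above and 5 below 0, at a median of 0.03, and 0 were higher and 3 lower in the labelled line for all 3 numbers. Their most abundant members were Sdcbp, the scaffold syntenin, at 463 ± 107 and 453 ± 109 CPM, Stat3 at 299 ± 123 and 285 ± 86.7 CPM, and Dvl2 at 145 ± 18.6 and 148 ± 19.5 CPM. At passage 18 against passage 20, 8 forward partners were called higher and 13 lower, and 2 reverse partners higher and 5 lower, beside 25.0% of all genes higher and 23.0% lower.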

How the data were processed

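Polyadenylated RNA of 6 lines (3 WT, 3 labelled Ephb2-KO) was sequenced from strand-keeping libraries, per the labels' protocols. The files hold whole read counts for each gene, which the authors made with featureCounts 1.4.6-p4 over GENCODE vM3 exons with strand setting 2, per the file headers; the exon length in the same files, another deposited quantity, was used for RPKM. STAR, FastQC and GRCm38.p3 are named in the submitters' processing notes, without versions or settings. Reads with several matches were left out, per the file headers. The number of columns from other series was 0.

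Counts were tested in R 4.3.3 with edgeR 4.0.16 (TMM, filterByExpr, glmQLFit with robust estimation, glmQLFTest, Benjamini-Hochberg over 15263 genes, threshold 0.05), without covariates between groups. Passage 18 against 20 and line 2 against 1 were contrasts of a fit with group and line number. Standard errors are the log2 difference over the square root of F. Log2 CPM used a prior count of 2. DESeq2 1.42.0, other scalings and filters, and left-out libraries were alternatives. The scripts were tested on simulated counts. Figures were drawn with matplotlib 3.10.9.

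Line numbers in the sample titles were used to pair the libraries. Deviations from group means correlated at 0.596, 0.736 and 0.850 within numbers 1, 2 and 3, above the bound of 0.1. Between numbers the correlation was at most 0.0790. Centring each gene on the mean of its group pushes the between-number values down where the within-number ones are high. They are therefore not a separate check of the pairing. Adding the number as a block lowered edgeR's common biological coefficient of variation from 0.440 to 0.166.

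Receptors and lists were chosen with earlier results of these data known. The rule named all EphB receptors and ephrin-B ligands, up to 4 passing members of each pathway list or otherwise its 3 most abundant, the 2 most abundant of each marker list, and the 3 genes nearest each receptor; other genes named were chosen after their values were seen. Of the marker lists, the leading genes not described in the results were Star and Cyp11a1 (means 1.28 and 0.367 CPM), Des and Acta2 (19.3 and 17.4) and Cd68 and Lyz2 (10.2 and 1.57).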

Additional observations from a re-analysis of the deposited data

How the results depend on the processing

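The number of genes called between the groups was 4 with the replicate block, 4 with DESeq2 and 19 with DESeq2 and the block. With the block, leaving out both lines numbered 1, 2 or 3 gave 56, 3 and 4. No EphB receptor passed between the groups under any of the 16 alternatives. Ephb3 and Ephb4 stayed above 0 in all 16, at 0.20 to 0.72 and 0.35 to 0.90. Ephb1 turned to -0.026 with the block, in edgeR and DESeq2 alike, and to -0.51 with the block and without both lines numbered 1, where Ephb2 turned to -0.22. With the block and without both lines numbered 2, Ephb2 was at 0.57 (SE 0.21, edgeR unadjusted p = 0.0180, adjusted p = 0.266). Without both lines numbered 3 it was at 0.055. Ephb6 turned to -0.086 with the block and without both lines numbered 3. Leaving out 1 library at a time gave -0.46 to 0.37 for Ephb1, -0.40 to 0.48 for Ephb2 and -0.10 to 0.23 for Ephb6. The causes were not tested.

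At passage 18 against 20, 3935 genes were called with no replicate block and 3376 to 8719 on leaving out 1 library, against 7323. Ephb2 was at -1.08 and Ephb3 at 0.59 with no replicate block, where neither passed. Ephb1 passed at -0.75 with DESeq2 and at -0.85 with library totals. Leaving out 1 library gave -1.08 to -0.38 for Ephb1, -1.35 to -0.70 for Ephb2, 0.55 to 0.72 for Ephb3, 0.12 to 0.56 for Ephb4 and -0.62 to -0.032 for Ephb6.

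For line 2 against line 1, leaving out 1 library gave 1401 to 3555 genes against 2516. The same gave values that passed at the low end and turned sign at the high end for Ephb1 (-0.97 to 0.43), Ephb2 (-1.05 to 0.23) and Ephb4 (-0.74 to 0.15). It gave -0.91 to -0.56 for Ephb3 and -0.27 to 0.25 for Ephb6. Ephb6 also turned to 0.0093 with DESeq2 or its size factors and to 0.015 with no filter on low counts. The order of the mean levels per length was the same with library totals and as TPM. Where WT 3 or Ephb2-KO 3 is left out, passage 18 rests on 1 library, assumed to vary like the rest. The same holds for line 1 or line 2 where a library of that number is left out. With 3 lines a group the permutation test could not go below p = 0.1.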

Other observations

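Some genes of the Eph pathway, and Etv5 of the spermatogonial markers, stood apart in single lines or single line numbers. They were chosen after their values were seen. Grb7, an adaptor that binds activated receptor kinases, stood at 0.902 CPM in Ephb2-KO 1 (32 counts) and at 13.0 to 25.1 CPM in the other 5 libraries. Efna1, an ephrin-A ligand, stood at 1.02 and 0.991 CPM in WT 2 and Ephb2-KO 2 and at 7.06 to 10.3 CPM in the other 4 libraries. Its log2 difference between lines 2 and lines 1 was -3.15, while that of its receptor Epha2 was 3.10. Etv5, a transcription factor of spermatogonial stem cells, stood at 252 and 218 CPM in lines 2 and at 23.3 to 31.9 CPM in the others.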
